A study of Mus musculus with 11 samples.

Results

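The DNA copy number of 4 genes of the RAS signalling pathway, Nf1, Nras, Rras2 and Braf, was read in 11 mouse mammary tumours. The genes were taken by name: every genomic array probe whose annotated gene was a member was used, which gave 45 of 170305 probes and 4 of 20709 gene names. Each tumour arose in a Pik3ca H1047R mouse of strain Mixed FVBN/Bl6, and its DNA (labelled with Cy5) was hybridised on a 2-colour oligonucleotide array against liver DNA of the same animal (labelled with Cy3). The tumours are 11 biological replicates of 1 group, tumours 1 to 11, so the liver of the animal is the control in every ratio, and tumour and liver share the Pik3ca H1047R genotype and the strain. The promoter that drives the mutant, the age of the animals and the share of tumour cells in the samples are not given in the labels. In such samples, the share of cells that carry a change and the number of copies changed per cell cannot be told apart.

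RAS proteins are small GTPases that switch on growth signalling while they hold GTP. Nras encodes a classical RAS protein, and Rras2 encodes TC21, a RAS-related GTPase that can activate both the PI3K and the RAF branch. Braf encodes a RAF kinase, which active RAS recruits to start the MEK and ERK kinase cascade. Nf1 encodes neurofibromin, a GTPase-activating protein that turns RAS off, and it is known as a tumour suppressor whose loss leaves RAS active. Active RAS also binds the catalytic subunit encoded by Pik3ca.

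The array held 24 probes for Nf1, which ran from chr11:79160565-79388279 on mouse build mm9, 12 for Braf (chr6:39554471-39668569), 8 for Rras2 (chr7:121192618-121257537) and 1 for Nras (chr3:102866883-102866942). Neighbouring probes of the first 3 genes lay a median of 9.26 to 9.62 kb apart. In RefSeq's gene table of assembly GRCm38.p6, Nf1 and Nras are read from the plus strand and Rras2 and Braf from the minus strand. Whether a probe lies in an exon, an intron or a UTR was not analysed here. The mean G and C content of the member probes was 36.04% to 37.3% per gene, against 36.7% over all probes.

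Some probe sequences are shown because they mark where the focal loss over Nf1 in tumour 1, described next, begins and ends, and because a single sequence carries the whole reading of Nras. The first pair are the neighbouring Ksr1 probes on both sides of the left border (chr11:78839432-78839491 kept, chr11:78852316-78852375 lost). They are followed by the first and last Nf1 probes (chr11:79160565-79160624 and chr11:79388220-79388279) and by the neighbouring probes on both sides of the right border (chr11:79697677-79697736 lost, chr11:79734591-79734650 kept). The last is the Nras probe. All are 60 bases long and are written in lower case as the deposited files give them.
Ksr1, kept: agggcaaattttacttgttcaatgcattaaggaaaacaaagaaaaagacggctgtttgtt
Ksr1, lost: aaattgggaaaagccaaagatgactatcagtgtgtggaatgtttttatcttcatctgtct
Nf1, first: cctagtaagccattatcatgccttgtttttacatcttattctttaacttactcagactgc
Nf1, last: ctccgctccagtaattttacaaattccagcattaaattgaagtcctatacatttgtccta
Right border, lost: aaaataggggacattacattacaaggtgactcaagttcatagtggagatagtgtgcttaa
Right border, kept: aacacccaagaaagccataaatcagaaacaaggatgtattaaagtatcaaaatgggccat
Nras: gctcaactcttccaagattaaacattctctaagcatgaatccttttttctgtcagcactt
In tumour 1 the log2 ratio of tumour over liver at these probes was -0.11 at the kept Ksr1 probe, -0.64 at the lost one, and -0.99 at both the first and the last Nf1 probe. At the right border it was -0.99 at the lost and -0.07 at the kept probe. The kept and the lost sequences thus sat on different levels on the same array. In tumours 2 to 11 the first Nf1 probe ranged from -1.17 to 2.02, with a median of -0.33, so this probe alone does not mark the loss. The last Nf1 probe ranged from -0.70 to 0.27 there, with a median of -0.18.

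The 11 arrays lie on 3 slides (tumours 2, 3 and 8 on slide 1, tumours 4, 7, 9 and 11 on slide 2, tumours 1, 5, 6 and 10 on slide 3). Log2 ratios were read relative to the median of each array. The noise SD between neighbouring probes was 0.131 to 0.554, with a median of 0.177, and was highest in tumour 9 (0.554) and tumour 11 (0.514). Spots not well above background made up 0.0803% to 12.8% of an array. Over all probes, tumour 11 correlated with tumours 4, 5, 9 and 10 at Pearson's r of -0.60, -0.61, -0.65 and -0.32, although the labels give the same dyes for all tumours. With tumours 1, 2, 3, 6, 7 and 8 its r was 0.08, -0.06, -0.10, 0.25, -0.22 and -0.04. Tumours 4, 5, 9 and 10 correlated with one another at 0.42 to 0.78. The direction given by the labels was kept for tumour 11, and means with its sign turned stand beside the results. Tumour 11 lay opposite in sign to the mean log2 ratio of Nras and of Rras2, and to that of Rras2 relative to its flanks. Turning it could only move these means away from 0, so their p-values with tumour 11 turned are no support. Over the autosomal probes, the log2 ratio rose with the G and C content of the probe on the other 10 arrays and fell with it in tumour 11 (r = -0.13). With the G and C content fitted, the means of the 4 genes were -0.13, 0.14, -0.17 and -0.03 for Nf1, Nras, Rras2 and Braf. The arrays were cut into segments of like level, and those with 10 or more probes whose mean lay at least 0.2 (log2) from 0 were called gains or losses. Calls no longer than 10 Mb that lay at least 0.6 from 0 were named focal.

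Nf1 lay in a deep focal loss in tumour 1, in a broad shallow loss in tumour 7 and in a broad gain in tumour 8, where 14.9% of all gene names were gained. Its mean log2 ratio over 24 probes was -0.98 in tumour 1, 0.07 in tumour 2, 0.10 in tumour 3, -0.16 in tumour 4, -0.14 in tumour 5, -0.14 in tumour 6, -0.44 in tumour 7, 0.33 in tumour 8, -0.27 in tumour 9, 0.06 in tumour 10 and 0.09 in tumour 11. Tumour 1 was lowest, with a gap of 0.53 to tumour 7 that exceeded the larger SD over probes of the pair (0.30). Tumour 8 was highest, and its gap of 0.23 to tumour 3 also exceeded the SD over probes (0.15). No other neighbours in this order differed beyond that spread. All 24 probes were below 0 in tumours 1 and 7, and all 24 were above 0 in tumour 8. In tumour 7, 4 of the 24 Nf1 probes were not well above background, as were 6 in tumour 9 and none in tumour 1. The SD over the Nf1 probes was 0.63 in tumour 2, where single probes lay at 2.02 and -2.13.

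**Figure D1:**
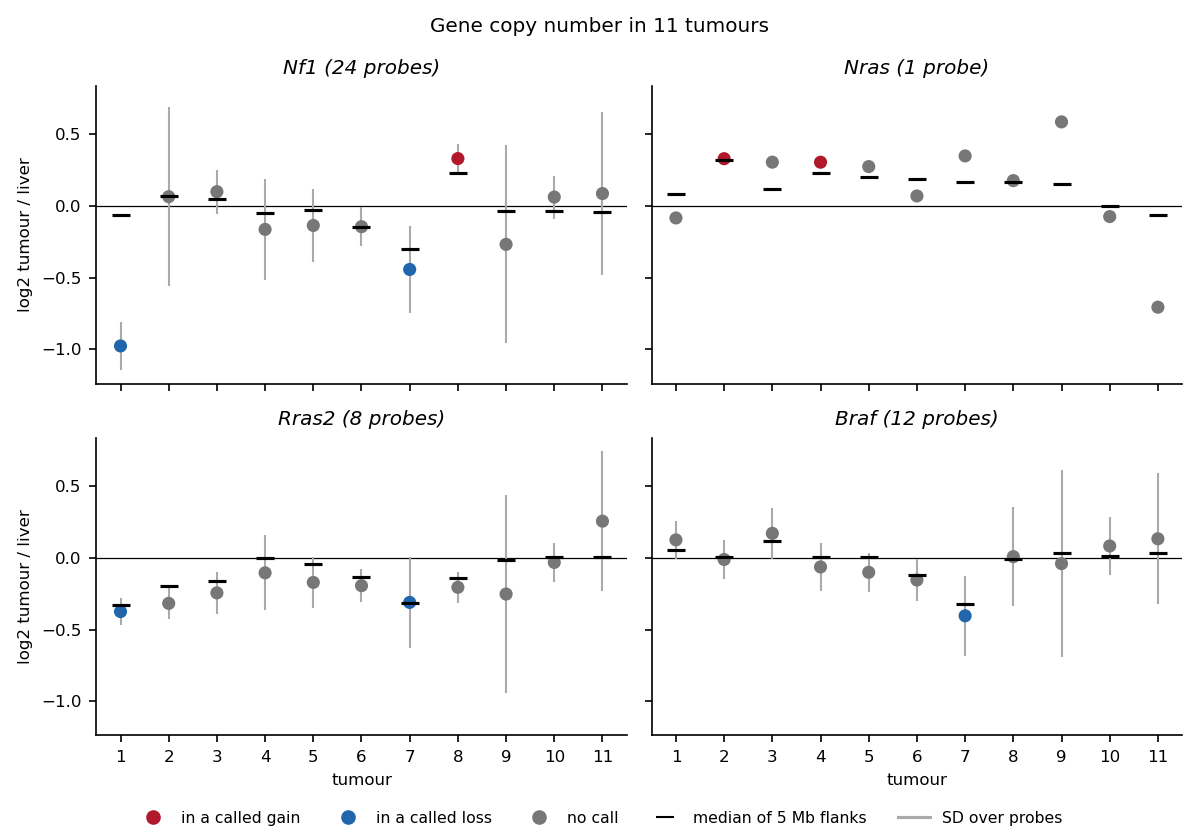
Log2 ratio of tumour over liver (vertical axis) of Nf1, Nras, Rras2 and Braf in tumours 1 to 11 (horizontal axis). Points are means over the probes of the gene, grey bars the SD over probes, black ticks the median of the probes within 5 Mb, and colours the segment calls. Nf1 in tumour 1 (-0.98) stands far below its flanks (-0.06), while the called points of Rras2, Nras and Braf lie near their flanks.

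Over the 11 tumours the mean of Nf1 was -0.13 ± 0.35 (SD, n = 11), and 6 tumours were below 0. This mean did not pass the test (limma over 9305 genes with at least 3 probes, Benjamini-Hochberg adjusted p = 0.388; exact two-sided sign-flip permutation p = 0.246). In that fit 2.3% of all genes were called lower and 4.59% higher, which took an adjusted p under 0.05 and a mean at least 0.1 away from 0. Without tumour 1 the mean was -0.05, so that tumour moved the mean by over 1.5 times. With tumour 11 turned it was -0.15 (limma adjusted p = 0.228). On slides 1, 2 and 3 the means of Nf1 were 0.17, -0.20 and -0.30.

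The focal loss in tumour 1 covered 67 probes at chr11:78852316-79697736, or 0.845 Mb. Their mean log2 ratio was -0.998 ± 0.205 (SD over probes), a linear ratio of tumour over liver of 0.501. Of the 67 probes, 66 were below -0.5, the lowest at -1.43 and the highest at -0.29. The loss had sharp borders: the 10 probes before it averaged 0.02 (from -0.11 to 0.22) and the 10 after it -0.19 (from -0.33 to -0.07), and of the probes inside only the highest reached into these ranges. It extended 0.308 Mb to the left and 0.309 Mb to the right of the Nf1 probes. The level was even along the gene, with means of -0.93, -0.96 and -1.04 over its first, middle and last 8 probes, and these differed by less than the SD of 0.20, 0.13 and 0.18 over those probes.

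**Figure D2:**
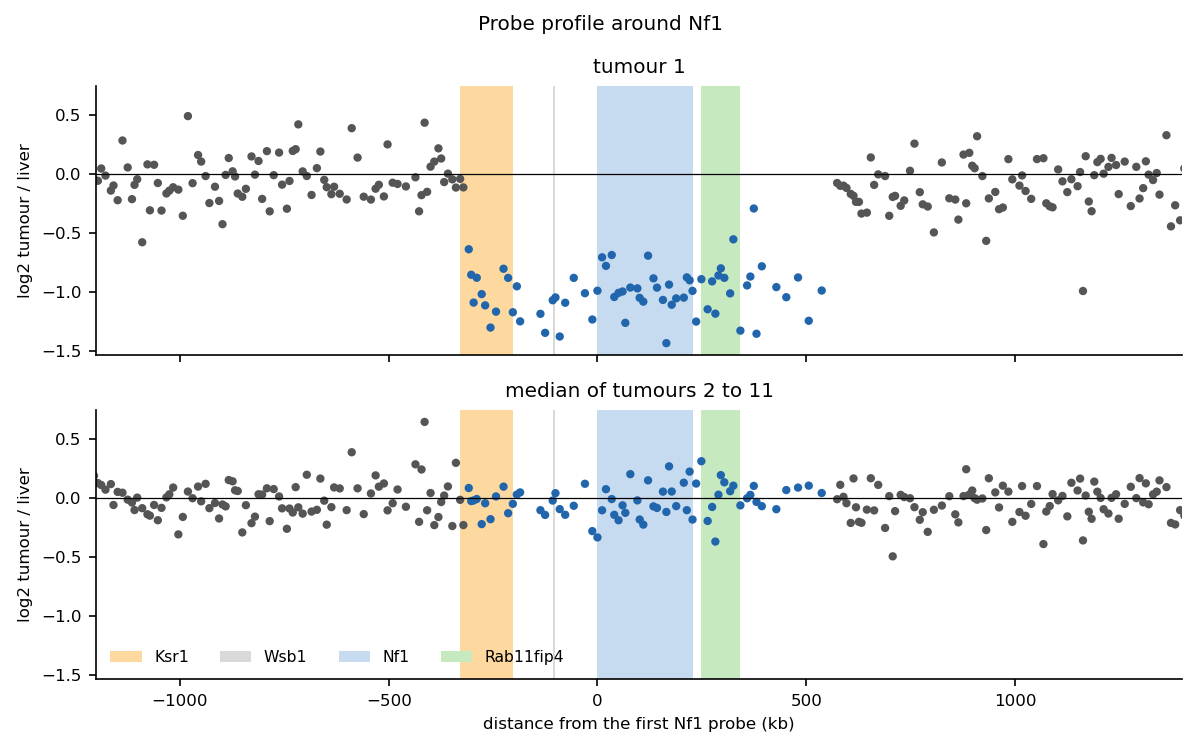
Log2 ratio of tumour over liver (vertical axis) of each probe by its distance in kb from the first Nf1 probe (horizontal axis), in tumour 1 (top) and as the median of the other 10 tumours (bottom). Blue points are the 67 probes of the loss and bands span the probes of Ksr1, Wsb1, Nf1 and Rab11fip4. In tumour 1 the blue points average -0.998, and in the median of the other tumours they lie around 0.

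Besides Nf1, 3 other array genes had probes in the loss. Ksr1 encodes a scaffold protein that brings RAF, MEK and ERK together, so the segment held an inhibitor of the pathway whole and a scaffold of it in part. The left border fell within the Ksr1 probes: 11 of its 13 probes were lost at a mean of -0.99 and the other 2 were kept at -0.08, with 12.8 kb between the last kept and the first lost probe. Ksr1 lies on the minus strand, so the kept probes are towards its 3′ end. Wsb1, a substrate-recognition component of a ubiquitin ligase, had a mean of -1.06 over 2 probes. Rab11fip4, an effector of the small GTPase RAB11, had a mean of -0.95 over 10 probes. The other 20 probes of the loss carry no gene name on the array. On the right, 36.9 kb separated the last lost from the first kept probe, and Utp6 was the first gene beyond it (-0.14).

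A total of 35 gene names, counting Nf1, had probes within 1 Mb of Nf1, and the 31 without a probe in the loss had values in tumour 1 from -0.33 (AK133080) to 0.25 (ENSMUST00000100748), with a median of -0.08. On the left these were Foxn1, U38981, Gm11194, Slc13a2, Sarm1, Poldip2, Tnfaip1, Tmem97, Nlk, AK136065, 1810012P15Rik, Nos2 and Lgals9. On the right they were Suz12, Crlf3, Atad5, 1110002N22Rik, Adap2, Rnf135, Rhot1, Rhbdl3, 5730455P16Rik, Zfp207, AK087885, AK132891, Psmd11, AK140773 and Myo1d. Suz12, a subunit of the Polycomb repressive complex PRC2, stayed at 0.02, Atad5, which unloads the replication clamp, at -0.03, and Nos2, the inducible nitric oxide synthase, at 0.06. These values were close to the flank median of -0.06 and far from the level of the loss.

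In tumour 1, 0.0531% of gene names lay in a focal loss. No other tumour showed the loss over Nf1. Over the same probes (67, or 66 in tumour 2), the mean of each of tumours 2 to 11 differed from that of the 20 adjacent probes by -0.05 to 0.08, against -0.91 in tumour 1. In tumour 1, Nf1 minus its flanks was the lowest value of all 9305 genes with at least 3 probes. This rank is a description and no support, as the members were chosen with earlier results of these data known. Wsb1, which has 2 probes in the same loss and was not ranked, was lower relative to its flanks (-0.99). Over all tumours, 0.0724% of the 20709 gene names lay in a focal loss in at least 1 tumour. On the autosomes tumour 1 had 3 other focal losses, and the nearest in length lay on the same chromosome at chr11:38053719-39172248, with 31 probes at a mean of -0.98.

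In tumour 7, Nf1 lay in a loss of 21.7 Mb with a mean of -0.33 (chr11:71076914-92792789), which began 8.08 Mb before the gene and ended 13.4 Mb after it. A raised segment of 0.0655 Mb, with a mean of 0.52, divided it from a further loss of 33.5 Mb on its left, with a mean of -0.32. At the place of this raised segment, tumours 1, 2, 3 and 8 had called gains with means of 0.47, 0.59, 0.54 and 0.45. Nf1 minus its flanks was -0.15 in tumour 7, and 10.6% of genes were lower in that tumour. In tumour 8, Nf1 lay 1.49 Mb to the right of a step in level. The 6.54 Mb segment to the left of the step had a mean of -0.27, and the segment with Nf1, 41.7 Mb long, had a mean of 0.33. The flanks of Nf1 in tumour 8 therefore hold probes of both levels. Further left in tumour 8, called losses with means of -0.30 to -0.22 lay from chr11:3107005 on.

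**Figure D3:**
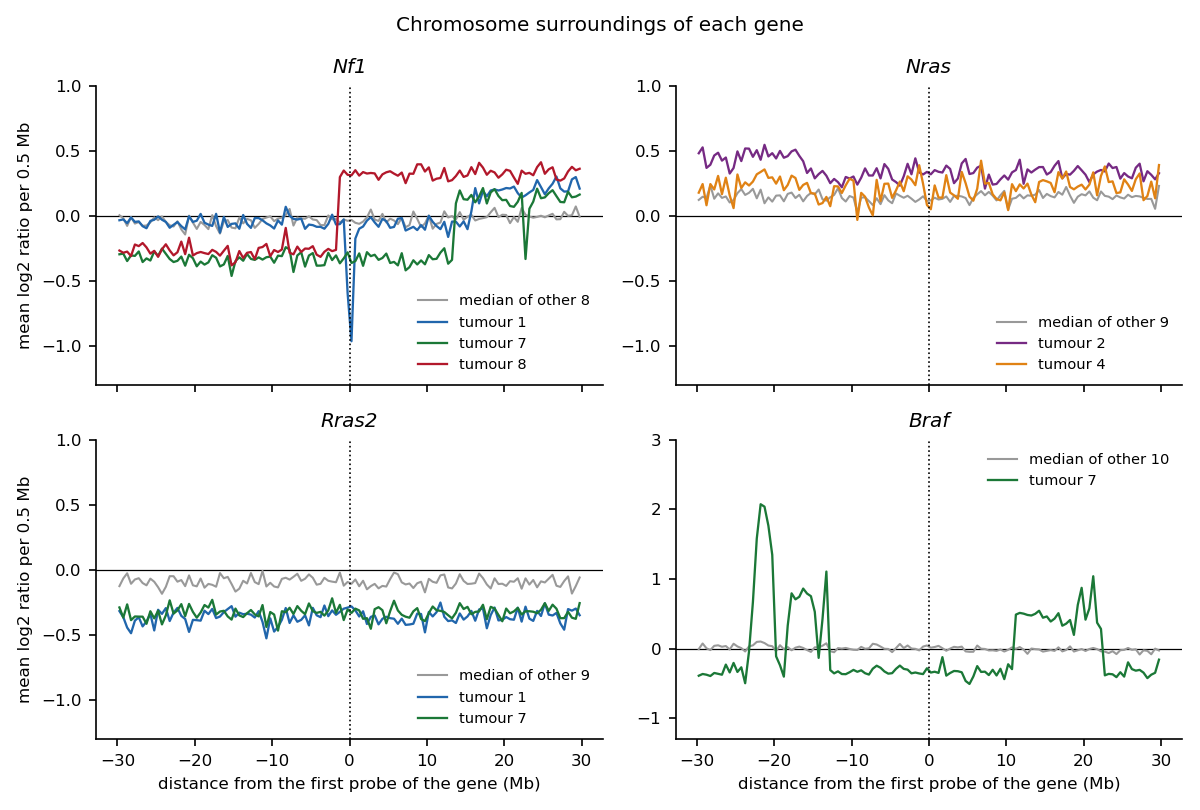
Mean log2 ratio per 0.5 Mb (vertical axis, with its own range for Braf) by distance in Mb from the first probe of each gene (horizontal axis), for the tumours with a call over the gene and for the median of the others in grey. Around Nf1, tumour 1 has a narrow dip and tumour 7 is low from the left edge to 13.4 Mb past the gene. Tumour 8 steps from a loss (-0.27) to a gain (0.33) just before Nf1. Around Nras and Rras2 the called levels continue past the gene on both sides, in tumour 2 at a higher level far to the left of Nras than near it. In tumour 4 the bins on each side of the Nras probe are lower, at 0.09 and 0.05.

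When each gene was read relative to the median of the probes within 5 Mb on both sides, Nf1 gave -0.91, -0.00, 0.05, -0.11, -0.11, 0.01, -0.15, 0.10, -0.23, 0.09 and 0.13 in tumours 1 to 11. Only tumour 1 lay outside the range from -0.23 to 0.13. The mean was -0.10 ± 0.29 (SD, n = 11; limma adjusted p = 0.562) and, without tumour 1, -0.02. In this fit 0.183% of all genes were called lower and 0.333% higher. None of the 4 members passed, which includes Nras, read in the wider fit described with its values.

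Nras was above 0 in 8 of 11 tumours on its only probe, which cannot be checked against a second probe of the gene. Its log2 ratio was -0.08 in tumour 1, 0.33 in tumour 2, 0.31 in tumour 3, 0.31 in tumour 4, 0.28 in tumour 5, 0.07 in tumour 6, 0.35 in tumour 7, 0.18 in tumour 8, 0.59 in tumour 9, -0.07 in tumour 10 and -0.71 in tumour 11. The highest and the lowest value came from tumours 9 and 11, the arrays with the highest noise. The means of the 45 probes within 250 kb of the Nras probe were 0.01 ± 0.68 (SD over probes) in tumour 9 and 0.05 ± 0.58 in tumour 11. In every tumour the Nras probe lay at most 1.34 SD from the mean of those neighbours. With 1 probe there is no spread over probes, so the order of the tumours cannot be tested.

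The mean of Nras was 0.14 ± 0.34 (SD, n = 11) and did not pass the test in a fit over 20690 genes with at least 1 probe (limma adjusted p = 0.393), in which 2.81% of genes were called higher and 1.96% lower. Exact sign-flip permutation (two-sided) gave p = 0.204. The call depended on tumour 11: without it the mean was 0.22 (limma adjusted p = 0.0231), with its sign turned 0.27 (limma adjusted p = 0.0154), and without tumours 9 and 11 it was 0.18 (limma adjusted p = 0.0336). On slides 1, 2 and 3 the means were 0.27, 0.13 and 0.05. Relative to its flanks Nras gave -0.17, 0.01, 0.19, 0.07, 0.07, -0.11, 0.18, 0.01, 0.43, -0.07 and -0.65 in tumours 1 to 11. The mean of these was -0.00 ± 0.27 (SD, n = 11; limma adjusted p = 0.987), and 1.4% of genes in that fit were called higher and 0.933% lower. The sign of this mean turned to 0.06 without tumour 11 and to 0.11 with tumour 11 turned.

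A gain was called over Nras in tumours 2 and 4, where 20.2% and 4.2% of all gene names were gained. In tumour 2 it was 57.0 Mb long with a mean of 0.34, and the 13.2 Mb to its left had a like mean of 0.31. In tumour 4 it was 21.0 Mb long with a mean of 0.20, at the threshold. Both were parts of a wider gain, as the chromosome 3 mean was 0.39 in tumour 2 and 0.23 in tumour 4. Other called gains in tumour 4 lay at chr3:13569348-87470990 (mean 0.24) and chr3:116637904-157063907 (mean 0.26). Segments over Nras in tumours 5, 6, 7, 8, 3 and 9 had means of 0.19, 0.18, 0.16, 0.15, 0.13 and 0.13, all below the threshold. Those of tumours 5, 8 and 9 were 156.6 Mb long. Tumours 1, 10 and 11 had segment means of 0.07, 0.01 and -0.04. The 45 probes within 250 kb of the Nras probe averaged 0.30 ± 0.18 (SD over probes) in tumour 2 and 0.03 ± 0.33 in tumour 4. In tumour 4 the level next to Nras thus lay below that of its called segment. The chromosome 3 mean of tumour 1 was 0.38, so the segment with Nras (91048125 to 112066004 on chr3, 21.0 Mb) stood apart from the rest of its chromosome. For comparison, 18.2% of gene names were in a called gain in at least 2 tumours, so a gain in 2 is close to that of many genes.

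Rras2 was the member whose mean passed the test, and it was below 0 in 10 of 11 tumours. Its mean log2 ratio over 8 probes was -0.37 in tumour 1, -0.32 in tumour 2, -0.24 in tumour 3, -0.10 in tumour 4, -0.17 in tumour 5, -0.19 in tumour 6, -0.31 in tumour 7, -0.20 in tumour 8, -0.25 in tumour 9, -0.03 in tumour 10 and 0.26 in tumour 11. No neighbours in this order differed by more than the SD over probes, which was 0.09 in tumour 1 and 0.69 in tumour 9. All 8 probes were below 0 in tumours 1, 2, 3, 6 and 8. In tumour 11, the tumour with the sign opposite to the others, 6 of 8 probes were above 0.

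The mean of Rras2 was -0.18 ± 0.17 (SD, n = 11; limma adjusted p = 0.0460). Rras2 was thus among the 2.3% of genes called lower, and 2.75% of the 9305 genes had a lower mean. Exact sign-flip permutation (two-sided) gave p = 0.0127, or 0.115 after adjustment over all genes. By sign-flip, 22.1% of the 9305 genes had an unadjusted p under 0.05, and 0 had an adjusted p under 0.05. The call was near the threshold: leaving out any of tumours 1 to 9 ended it, with limma adjusted p-values of 0.0691 to 0.104 over those fits, while it held without tumour 10 (0.0457) or tumour 11 (0.00210). In the fit over genes with at least 1 probe the limma adjusted p was 0.0703, and with the arrays centred on their mode it was 0.0687. With tumour 11 turned the mean was -0.22 (limma adjusted p = 0.00124). Within slides 1, 2 and 3 it was -0.26, -0.10 and -0.19.

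Relative to its flanks Rras2 did not pass the test. The differences were -0.04, -0.12, -0.09, -0.10, -0.13, -0.06, 0.00, -0.06, -0.23, -0.03 and 0.25 in tumours 1 to 11. In tumours 1 and 7, which had called losses, the difference was close to 0, and in tumours 4, 5, 9 and 11 it was close to the ratio itself. The mean was -0.06 ± 0.12 (SD, n = 11; limma adjusted p = 0.459). With tumour 11 turned it was -0.10 (limma adjusted p = 0.0294), and without tumour 11 it was -0.09 (limma adjusted p = 0.0372), below the size needed for a call. The mean of chromosome 7 was -0.37 in tumour 1, -0.32 in tumour 7 and -0.16 in tumours 2 and 3. Losses were called over Rras2 in tumours 1 (36.4 Mb, mean -0.35) and 7 (96.0 Mb, mean -0.33). A loss in at least 2 tumours was found for 25.4% of gene names.

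**Figure D4:**
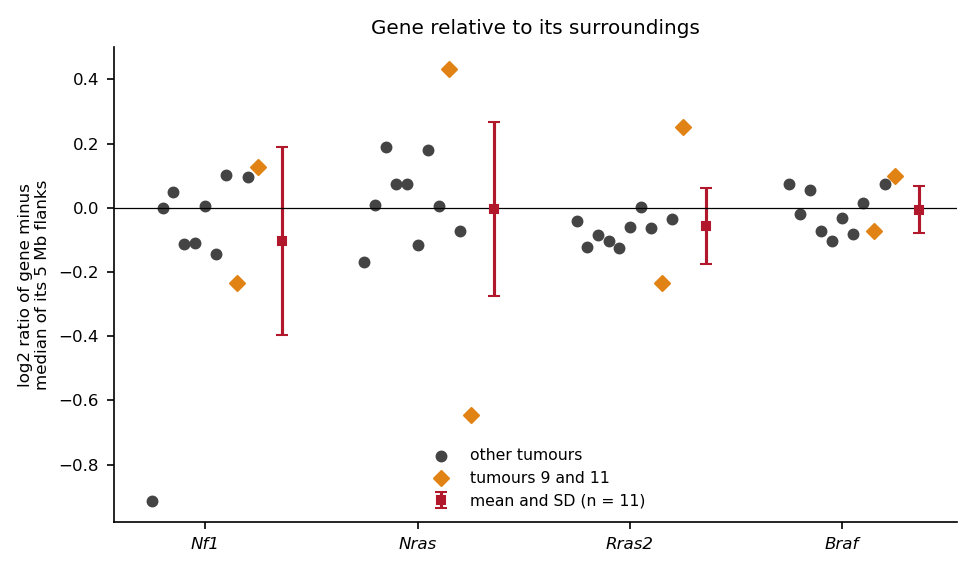
Log2 ratio of each gene minus the median of its 5 Mb flanks (vertical axis) in the 11 tumours, in order from tumour 1 at the left of each gene. Diamonds are tumours 9 and 11, the noisiest arrays, and red squares with bars are the mean and SD over 11 tumours. Nf1 in tumour 1 lies at -0.91, and the other points under -0.3 or over 0.3 are those of Nras in tumours 9 and 11.

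Braf stayed near 0 in most tumours. Its mean log2 ratio over 12 probes was 0.13 in tumour 1, -0.01 in tumour 2, 0.17 in tumour 3, -0.06 in tumour 4, -0.10 in tumour 5, -0.15 in tumour 6, -0.40 in tumour 7, 0.01 in tumour 8, -0.04 in tumour 9, 0.08 in tumour 10 and 0.13 in tumour 11. Tumour 7 was lowest, with all 12 probes below 0, but its gap of 0.25 to tumour 6 was within the SD over probes of 0.28. The mean was -0.02 ± 0.16 (SD, n = 11; limma adjusted p = 0.829; exact sign-flip permutation p = 0.697), and with tumour 11 turned it was -0.05 (limma adjusted p = 0.511). Within slides 1, 2 and 3 it was 0.06, -0.09 and -0.01. Relative to its flanks Braf ranged from -0.10 in tumour 5 to 0.10 in tumour 11, with a mean of -0.01 ± 0.07 (SD, n = 11; limma adjusted p = 0.934), the narrowest spread of the 4 genes. With tumour 11 turned that mean was -0.02 (limma adjusted p = 0.458).

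The loss over Braf in tumour 7 was 14.5 Mb long with a mean of -0.33 (chr6:26580128-41036640). It lay on a chromosome with steep gains: the adjoining segment on its left, 13.0 Mb from Braf, had a mean of 1.30, and a segment of 1.46 Mb further left reached 2.03. On the right, 1.37 Mb from Braf, the adjoining segment (0.0648 Mb) had a mean of 0.58 but held too few probes to be called. Beyond it lay a further called loss of 9.42 Mb with a mean of -0.34 (chr6:41122850-50539732). The next called gain to the right lay at chr6:50546172-55468844 with a mean of 0.49. Called losses of like level also lay at chr6:3131098-16448141 (-0.33), chr6:61808984-75808099 (-0.34) and chr6:77057199-149512014 (-0.32). Braf thus lay at a lowered level found along much of the chromosome, and in none of the raised segments. In tumour 7, 3 of the 4 members (Nf1, Rras2 and Braf) lay in called losses, where 26.6% of all gene names did. In tumour 1, 2 of the 4 (Nf1 and Rras2) did, against 21% of gene names.

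The members were compared with the wider pathway, 75 genes with the roles of RAS GTPases, RAS inhibitors (GAPs), RAS activators (GEFs), adaptors and scaffolds, RAF kinases, MEK and ERK kinases and feedback inhibitors. Of these, 63 had a probe and 44 had at least 3. Of the 44, 1 was called higher and 3 lower, with a median of the mean log2 ratios of -0.02 against -0.01 over all 9305 genes. Over all genes 4.59% were called higher and 2.3% lower. The higher gene was Rap1a, which encodes a RAS-like GTPase and lies on chromosome 3 as Nras does: it was above 0 in 11 of 11 tumours, with a mean of 0.15 ± 0.10 (SD; limma adjusted p = 0.0282), and relative to its flanks its mean was 0.01 (limma adjusted p = 0.929).

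Besides Rras2, the genes called lower were Iqgap1 and Rps6ka1. Iqgap1, a scaffold of the ERK cascade on chromosome 7, was below 0 in 11 of 11 tumours, with a mean of -0.18 ± 0.12 (SD; limma adjusted p = 0.0238). Rps6ka1, a kinase downstream of ERK on chromosome 4, was below 0 in 9 of 11, with a mean of -0.17 ± 0.14 (SD; limma adjusted p = 0.0352). Relative to their flanks neither passed, with limma adjusted p-values of 0.280 and 0.176. These counts moved with single tumours: leaving out 1 tumour gave 0 to 3 genes higher and 0 to 6 lower, with the highest counts of both without tumour 11. With tumour 11 turned, 3 were higher and 4 lower.

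**Figure D5:**
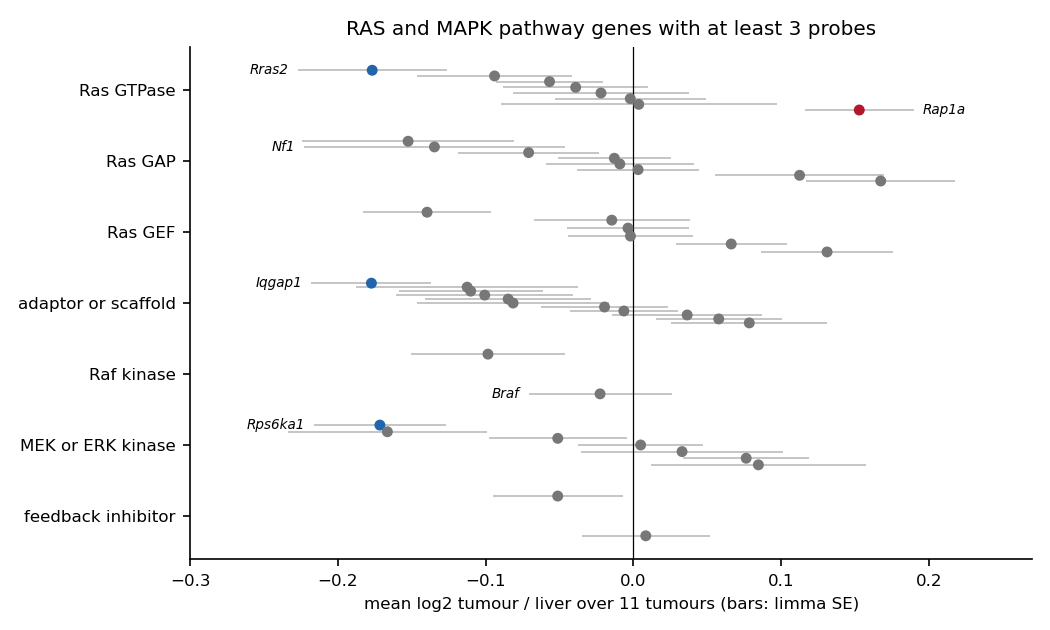
Mean log2 ratio of tumour over liver over 11 tumours (horizontal axis; bars are the SE of limma) of the 44 pathway genes with at least 3 probes, grouped by role (vertical axis). Red and blue points were called higher and lower. The called genes Rap1a (0.15), Rras2 (-0.18), Iqgap1 (-0.18) and Rps6ka1 (-0.17) are named, with Nf1 and Braf.

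Rasa1, another RAS GAP, had a mean of -0.07 ± 0.16 (SD, n = 11; limma adjusted p = 0.404) and did not pass the test. Rasa1 lay in called losses in 2 tumours, as Nf1 and Rras2 did. Of all 63 list genes on the array, Nf1 and Ksr1 were those with a probe in a focal segment, both through the loss of tumour 1. By tumour, 25 of the 63 lay in called losses in tumour 7 (where 26.6% of all gene names did), 18 in tumour 1 (21% of gene names) and 13 in tumour 8 (20.9%). In each other tumour at most 2 did, against at most 2.79% of gene names (tumour 4). Called gains held 13 of the 63 in tumour 2 (20.2% of gene names), 7 in tumour 8 (14.9%) and 5 in tumour 6 (8.57%). They held 3 each in tumours 1, 3 and 7 (5.41%, 9.64% and 5.73% of gene names) and 2 in tumour 4 (4.2%). In the others they held none, against at most 0.348% of gene names (tumour 11).

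The 4 genes did not follow a common pattern over the tumours. Pearson's r between their log2 ratios was -0.06 for Nf1 and Nras, 0.47 for Nf1 and Rras2, 0.20 for Nf1 and Braf, -0.74 for Nras and Rras2, -0.44 for Nras and Braf and 0.31 for Rras2 and Braf, over 11 tumours that share an array for all genes. These values are a description, and tumour 11 is at an extreme of both Nras and Rras2. Without tumour 11 the r of Nras and Rras2 was -0.19 (-0.22 with its sign turned), that of Nras and Braf -0.34 and that of Rras2 and Braf 0.10. Without it the r of Nf1 was 0.20 with Nras, 0.53 with Rras2 and 0.15 with Braf. Among genes with at least 5 probes, ranked by r over the 11 tumours, those most like Nf1 on other chromosomes were Gpr128 (0.97), Alcam (0.94) and Fgf12 (0.93), all on chromosome 16, and without tumour 1 these fell to 0.92, 0.83 and 0.81. On its own chromosome beyond 5 Mb they were Rab37 (0.78), AK016100 (0.77) and Usp32 (0.67). Without tumour 1 these were 0.57, 0.46 and 0.98, and Usp32 lies outside the focal loss of that tumour.

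For Rras2 the genes most alike on its own chromosome were C80913 (r = 0.97), Fchsd2 (0.96) and Fam168a (0.96). Without tumour 11 these were 0.91, 0.89 and 0.86 and ranked at places 3, 9 and 16, and with tumour 11 turned they were 0.87, 0.87 and 0.79. On other chromosomes they included Dach2 (0.89) and AK043715 (0.89), both on chromosome X, with 0.92 and 0.78 without tumour 11. For Nras they were Chd1l (0.96), AK206798 (0.94) and Vav3 (0.91) on chromosome 3, and Slc7a1 (0.96), Wnt7b (0.95) and Lama5 (0.95) elsewhere. Without tumour 11 those on chromosome 3 fell to 0.89, 0.81 and 0.70 and those elsewhere to 0.94, 0.85 and 0.83, and with it turned they were 0.88, 0.85 and 0.65, and 0.87, 0.90 and 0.87. For Braf they were Grm8 (0.94), Phf14 (0.89) and Ccdc132 (0.87) on chromosome 6, and AK182289 (0.90), Trpm7 (0.85) and Mprip (0.82) elsewhere. With tumour 11 turned, the r of the genes named for Nf1 ran from 0.64 to 0.94 and of those named for Braf from 0.75 to 0.93. They were the 3 highest of 274 to 5512 genes ranked over 11 tumours, and the r for genes on other chromosomes was as high as 0.97.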

How the data were processed

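DNA of 11 tumours was measured on 1 Agilent 2-colour array each, with the tumour in Cy5 and the liver in Cy3, per the labels. The submitters' processing notes name Agilent Feature Extraction 10.5.1.1 and Partek. Version 11.0.1.1 stands in the headers of tumours 4, 7, 9 and 11, and positions are on mm9, per the file headers. The deposited files give, per spot, the intensity of each channel after background subtraction and linear dye normalization, and its log10 ratio. The authors' value table gives a log2 ratio per probe and was used as an alternative. Its Pearson's r with log2 of the ratio of the deposited intensities was 0.965 in tumour 2 and at least 0.9977 in the others. In tumour 2, 2977 probes differed by more than 0.001.

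From the deposited intensity, log2 of Cy5 over Cy3 was averaged per probe without outlier spots, centred on the array median and averaged per gene. Genes with at least 3 probes were tested against 0 with limma 3.58.1 (R 4.3.3, two-sided, Benjamini-Hochberg), with calls at an adjusted p under 0.05 and a mean at least 0.1 from 0, and with exact sign-flip tests (2048 flips). Nras, with 1 probe, took its values from the fit over genes with at least 1. P-values measure the spread between these 11 biological replicates. Segments came from optimal partitioning (Python 3.11.15, numpy 2.4.6, numba 0.67.0) with a penalty of 2 noise variances times the logarithm of the number of probes and at least 5 probes each. The number of arrays limits the precision. Both steps were tested on simulated data. The normexp alternative used median signals, since 4 files hold no mean signals. Other alternatives changed the centring, spots, probe minimum, flanks, slide, tumours, G and C content and segment settings.

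The members and lists were chosen with earlier results of these data known. Named are the members, array genes in a focal segment over a member or within 1 Mb of Nf1, list genes that were called or focal, and the 3 genes most like each member (on its own chromosome beyond 5 Mb, and elsewhere). Rasa1 was added after its values were seen, and some genes that the rule names are not reported here.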

Additional observations from a re-analysis of the deposited data

How the results depend on the processing

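The focal loss over Nf1 in tumour 1 kept its borders with the authors' value table, with normexp and without dim spots. It also kept them with the G and C content fitted and with segmentation penalties of 1 and 4. Mode centring, tumour 11 turned, the call thresholds and the probe minimums could not move these borders. Over all 12 alternatives the mean of the loss was -1.105 to -0.998. The Nf1 means kept their direction and missed the threshold in all alternatives (-0.15 to -0.10, and -0.13 to -0.07 relative to flanks). With 1 tumour left out they ran from -0.18 to -0.05 and from -0.13 to -0.02. The Rras2 call was lost with mode centring (-0.19, limma adjusted p = 0.0687) and over genes with at least 1 probe (-0.18), and left-out tumours gave -0.22 to -0.16; relative to flanks it passed with tumour 11 turned (-0.10), and left-out tumours gave -0.09 to -0.04. Nras passed with tumour 11 turned (0.27) and without tumours 9 and 11 (0.18), and left-out tumours gave 0.10 to 0.22. Relative to flanks, Nras changed sign with tumour 11 turned (0.11), without tumours 9 and 11 (0.0194) and with 2 Mb flanks (0.00439), and left-out tumours gave -0.0470 to 0.0608. Braf changed sign with normexp (0.00309, and 0.0213 relative to flanks) and with 10 Mb flanks (0.00382), and left-out tumours gave -0.0419 to 0.0156 and -0.0163 to 0.00411. List genes called higher numbered 0 with mode centring, 2 without dim spots, 3 with slide as a block, 3 with tumour 11 turned and 2 without tumours 9 and 11 (0 to 3 with 1 tumour left out); those called lower numbered 1 with mode centring, 5 with slide as a block and 6 without tumours 9 and 11 (0 to 6). Gains over Nras were called in 1 tumour with mode centring, penalty 1 or threshold 0.3, 5 with normexp and 6 with threshold 0.15, and over Rras2 in 1 with penalty 1. The cause of these changes was not tested. Over all genes, 66.6% of the 641 calls were higher; this was 50.8% with slide as a block, 49.3% with tumour 11 turned and 55.5% without tumours 9 and 11. Higher and lower genes numbered 427 and 214, against 161 and 87 with mode centring, 829 and 851 with tumour 11 turned, over 1.5 times as many with slide as a block, 828 and 665 without tumours 9 and 11 and 656 and 390 with normexp. In the fit with slide as a block the estimated correlation within slides was negative (-0.111). The limma SE of the Rras2 mean was 0.0415 in that fit, against 0.0504 without the block. The setting for G and C content was chosen after seeing the data. No median over probes and no minimum of 5 probes could be run for Nras. No paired analysis was possible because the tumours form 1 group and each ratio already sets a tumour against its own liver. Noise of 0.514 and 0.554 in tumours 11 and 9 limits what their single probes can show.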
